A study of Mus musculus with 6 samples.

Results

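Heat shock chaperones and the CCT complex were followed as 39 named genes in Ba/F3, a murine pro-B line that needs interleukin-3 to grow. The genes were taken from a list by name: the HSP70 and HSP110 family, HSP90 with its co-chaperones, J proteins, mitochondrial chaperones, the subunits of CCT, and a small set of BAG, small heat shock protein and heat shock factor genes. Of the 39, 36 had a probe set that carries their symbol alone and were measured among 18193 genes, and Hsp90ab1, Ptges3 and Hsf1 were not analysed here. The cells had been transduced with a retroviral Tet-On construct of SPAG9-JAK2, a fusion of the scaffold protein SPAG9 with the tyrosine kinase JAK2. Induced cells were grown with doxycycline at 500 ng/ml (3 arrays) and uninduced cells without it (3 arrays), and RNA was taken after 48 hours. Both groups carried the construct. Doxycycline without the fusion was not analysed here, so the drug and the fusion cannot be told apart. The sources used here do not say whether the line was 1 clone or whether interleukin-3 was in the medium.

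HSP70 proteins hold unfolded stretches of client proteins in a cycle driven by ATP. J proteins deliver the clients and start ATP hydrolysis, and HSP110 proteins, BAG proteins and other exchange factors release ADP. HSP90 takes over clients close to their native state, among them many kinases, JAK2 included, and co-chaperones set the order of the steps. CCT, also called TRiC, is a ring chaperone of the cytosol built of paralogous subunits that folds actin and tubulin, and HSP60 (Hspd1) with its lid HSP10 (Hspe1) is the corresponding chamber of mitochondria. Many of these genes are also transcribed on stress through heat shock factor HSF1, which binds repeats of a short motif in their promoters.

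Values were signal intensities, and a difference is induced minus uninduced on the scale of log2(signal + 16), which understates the change of genes with low signal. A gene was said to rise or fall only at an adjusted p under 0.05 in limma over all 18193 genes. Median signals of the arrays ranged from 46.5 to 55.2 in induced cells and from 46.3 to 63.8 in uninduced cells, with uninduced replicate 1 the highest. That array stood apart. Across genes it correlated with induced replicates 1, 2 and 3 at r = 0.971, 0.9654 and 0.9674. With uninduced replicates 2 and 3 it correlated less, at r = 0.963 and 0.964. Results are therefore also given without it. Arrays with the same replicate number deviated together from their group means (r of 0.36, 0.193 and 0.331 over 9097 genes for replicates 1, 2 and 3). Induced replicate 3 with uninduced replicate 2 (0.297) and induced replicate 2 with uninduced replicate 3 (0.188) did so too, while replicate 1 of either group correlated negatively with replicates 2 and 3 of the other (-0.344 to -0.21). Every same-numbered pair was above 0.1, so fits with the replicate number as a block are given where they change a call. Of 13 measured markers of the line, 5 lay above the 90th percentile of 18 liver and brain genes that stood for background (6.70 on the log2 scale), among them Ptprc, Csf2rb and Cd79b, whereas Cd79a, Vpreb1, Igll1, Ebf1, Pax5, Rag1, Dntt and Kit did not. Among the 18 genes Mbp (694 to 1216 over all arrays) and Mag (204 to 422) were bright and raised that percentile, and the median of the 18 was 5.36. Genes between these 2 levels are therefore not shown to be at background. Granulocyte and monocyte markers had a summed signal of 1559 to 5872 on induced and 3046 to 11476 on uninduced arrays. Of the 11 markers 9 had a negative difference, with a median of -1.29, and 0 passed in limma. At an unadjusted p under 0.05 in limma 0 were higher and 5 lower (7.14% and 10.3% of all genes). Without uninduced replicate 1, 3 of the 11 fell (Csf1r, Ltf and Adgre1, adjusted p of 0.0176, 0.0225 and 0.0444 in limma), as did 4.77% of all genes. The part of these markers in the results was not tested. The erythroid marker Klf1 pointed up, with 3687, 4499 and 4097 on induced arrays, against 2025, 1922 and 2049 on uninduced arrays. Its difference was 1.02 ± 0.16 (adjusted p of 0.0825 in limma, 0.0308 without uninduced replicate 1). Hba-a1, also erythroid, had 1.64 to 33.3 over all arrays. The mouse probe sets of Jak2 (1430, 1740 and 1600 on induced arrays, against 1175, 3439 and 3081 on uninduced arrays) and Spag9 (2219, 1667 and 1938, against 2222, 4702 and 4659.9) were not higher in induced cells. The sources used here give no sequence for the fusion, so these probe sets do not check its induction.

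Most chaperone genes were higher in induced cells by small amounts, and 1 rose beyond the threshold. Of the 36 measured genes 31 had a positive difference (44.1% of all genes) and 5 a negative one, with a median of 0.35, against a median of -0.06 over all genes. The 1 gene past the threshold was Hsph1 (0.115% of all genes rose and 0.0715% fell, 21 and 13 genes, or 24 and 6 with median centring), and 9 were higher and 0 lower at an unadjusted p under 0.05 (7.14% and 10.3% of all genes). For 19 genes all induced arrays lay above all uninduced arrays, and for 0 all lay below (10.7% and 13.4% of all genes). All 19 were among the 31 chaperone genes at or above the median level of the array, where the shares of all genes were 16.9% higher and 18.9% lower. Each array pooled the RNA of a culture, so a change in the number of cells with an RNA and in its amount per cell cannot be told apart. Without uninduced replicate 1, 6 chaperone genes rose and 0 fell in limma (3.22% and 4.77% of all genes), namely Hsph1, Hspa4, Stip1, Ahsa1, Dnaja1 and Hspd1. Without both replicate 1 arrays 4 rose and 0 fell (2.88% and 5.24% of all genes), namely Hsph1, Hspa14, Dnaja1 and Hspd1. With any other single array left out 0 rose or fell (at most 0.055% of all genes rose and 0.011% fell). In those fits 5 to 10 chaperone genes were higher and 0 lower at an unadjusted p under 0.05 in limma. With the replicate number as a block 0 rose or fell (0% of all genes, with 7 chaperone genes higher and 0 lower at an unadjusted p under 0.05 in limma).

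**Figure D1:**
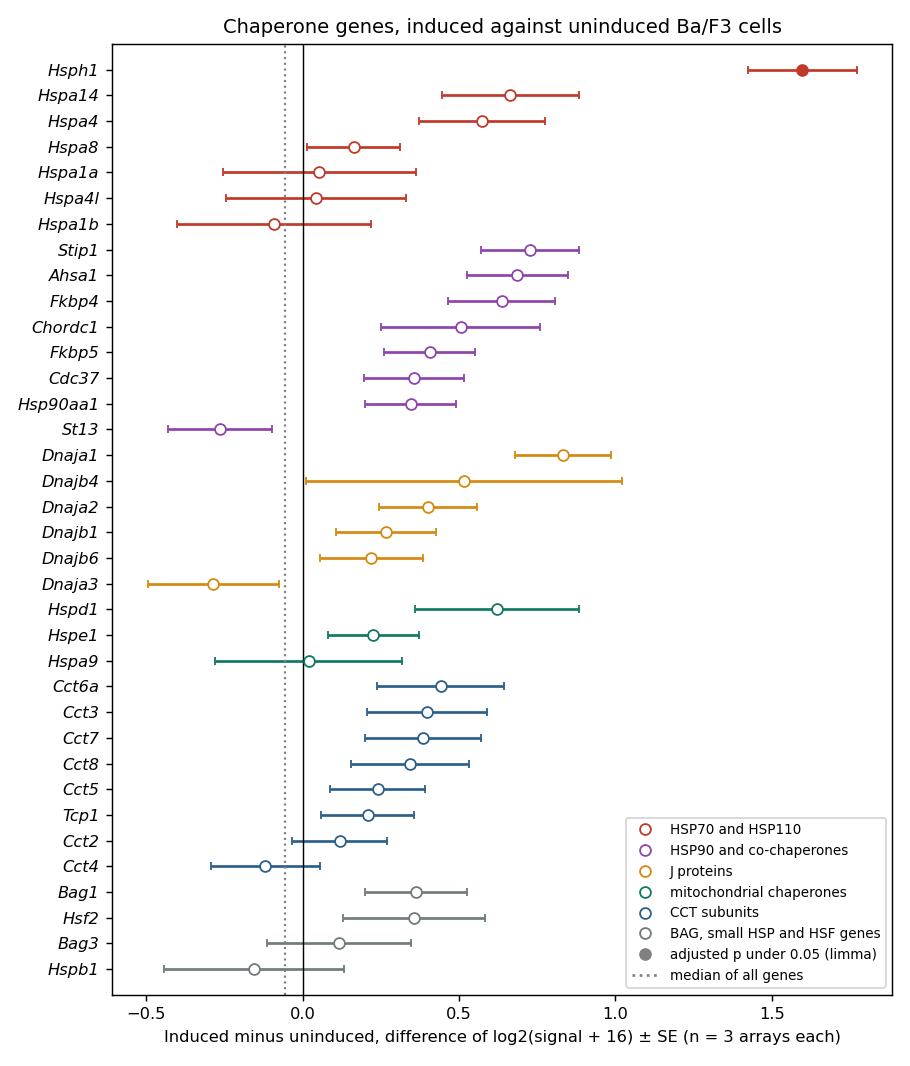
Difference between induced and uninduced cells (x axis, log2(signal + 16), ± SE, n = 3 arrays each) for the 36 measured chaperone genes (y axis), coloured by group and sorted within it. The 1 filled point is Hsph1 at 1.60, 31 of 36 points lie right of 0, and the dotted line is the median of all genes at -0.06.

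Among the HSP70 and HSP110 genes the change was that of Hsph1, which codes for HSP105, an HSP110 protein and nucleotide exchange factor of HSP70. Its signal was 5421, 5159.7 and 4769.7 on induced arrays, against 1984, 1508 and 1576 on uninduced arrays. All induced arrays were above all uninduced ones, and the gap between the groups was wider than the spread in either. Hsph1 rose 3.03-fold, by 1.60 ± 0.17 (log2 difference ± SE, n = 3 each), and its adjusted p in limma was 0.0401. It ranked 86th of 18193 genes by the size of its increase, and its second probe set gave 1.82. The size was steady, from 1.52 to 1.72 when any 1 array was left out, but the call was not: the adjusted p in limma was 0.0133 without uninduced replicate 1 and from 0.114 to 0.249 with any of the other arrays left out. A fit with replicate number as a block gave an adjusted p of 0.198. With replicate 1 as a batch the adjusted p in limma was 0.0487, and without both replicate 1 arrays it was 0.0329.

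A promoter window of Hsph1 is shown because it holds repeats of the heat shock motif, and Hsph1 was the chaperone gene that rose. Windows of 300 bases, most of them before an annotated start, came from RefSeq on GRCm38.p6 and were available for 32 of the 39 genes (41 windows). The motif was searched on both strands as 2 units, GAANNTTC or TTCNNGAA, and as 3 units, GAANNTTCNNGAA or TTCNNGAANNTTC, in which a 3-unit match holds 2-unit matches. Of all 32851 mouse windows 15.1% held the 2-unit form and 0.603% the 3-unit form. Of the 41 chaperone windows 18 (43.9%) held the first and 7 (17.1%) the second. The 7 belonged to 5 genes: Hsph1, Chordc1, Dnajb6, Hspd1 and Hspe1. The 2 windows of Hsph1 overlap and hold the same 3-unit run, as do the 2 of Dnajb6, and Hspd1 and Hspe1 share a run. The 7 windows therefore count some sites more than once. Capitals mark each run of units, and the sequence is written in the direction of transcription.
Hsph1, chr5:149636266-149636565, minus strand: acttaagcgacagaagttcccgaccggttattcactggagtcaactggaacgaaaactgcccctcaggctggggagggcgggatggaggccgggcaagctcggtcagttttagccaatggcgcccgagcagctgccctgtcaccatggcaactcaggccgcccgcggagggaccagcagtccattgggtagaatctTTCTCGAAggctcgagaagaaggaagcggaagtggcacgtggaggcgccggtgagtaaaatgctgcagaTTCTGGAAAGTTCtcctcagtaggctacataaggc
The 8-base run began at position -54 and the 13-base run at position 16 from the annotated start of this window. From the start of the other Hsph1 window they began at -33 and 37. A match describes these letters and was not tested for binding.

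Other HSP70 genes showed smaller differences, none past the threshold. Hspa14, an HSP70 that works at the ribosome, had 2383, 3874 and 3486 on induced arrays, against 2079, 1946 and 1980 (log2 difference 0.66 ± 0.22, adjusted p of 0.212 in limma), and its other bright probe set gave 0.33. The groups did not overlap, but induced replicate 1 lay much nearer to the uninduced arrays than the other induced arrays did. Hspa4, the HSP110 protein APG-2, had 7760 to 8431 on induced and 4550 to 6858 on uninduced arrays (0.57 ± 0.20, adjusted p = 0.231), and its other bright probe sets gave 0.15 and 0.34. Its testis-enriched relative Hspa4l gave 0.04 ± 0.29, with overlapping groups, and -0.25 without uninduced replicate 1. Hspa8, the constitutive HSC70, had 40842, 35693 and 36838 on induced arrays, against 34802, 32412 and 33880 on uninduced arrays (0.16 ± 0.15). The groups did not overlap, and the difference was about the size of its error, but its other bright probe sets gave 0.33 to 0.45. The stress-inducible pair Hspa1a and Hspa1b, which code for nearly the same protein and can share probes, had low signal in every array. It was 4.59 to 23.2 for Hspa1a and 12.1 to 33.9 for Hspa1b on induced arrays, and 7.31 to 18.7 and 14.0 to 39.2 on uninduced arrays. On the log2 scale Hspa1a (4.36 to 5.29) lay below the median of the background genes (5.36), and Hspa1b (4.81 to 5.79) on both sides of it. Hspa1b is therefore not shown to be at background on every array. At this signal the differences of Hspa1a and Hspa1b, 0.05 ± 0.31 and -0.09 ± 0.31, are not read as a change or as its absence. Other probe sets of Hspa1b, dimmer on average, gave -1.25 ± 0.26 and -0.33 ± 0.33, with the same limit. The group's median was 0.16 over 7 genes (6 positive), with 3 higher and 0 lower at an unadjusted p under 0.05 in limma (7.14% and 10.3% of all genes).

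**Figure D2:**
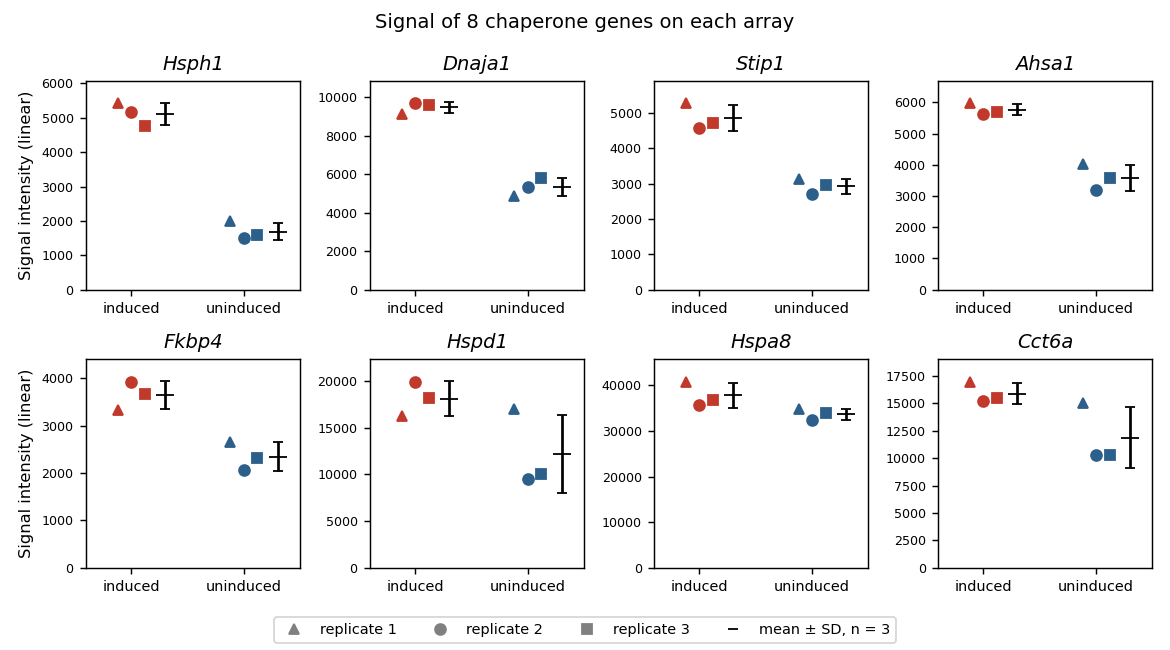
Signal intensity (y axis, linear, from 0) of 8 chaperone genes on the 3 induced and 3 uninduced arrays (x axis), with marker shape for the replicate number and mean ± SD beside the points. Hsph1, Dnaja1, Stip1, Ahsa1 and Fkbp4 are higher on every induced array, whereas the uninduced replicate 1 triangle of Hspd1 (16965) lies within the induced range and that of Cct6a (15043) just below it.

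HSP90 and its co-chaperones had a median of 0.46 over 8 measured genes (0.29 with the mean of each gene's probe sets). Of these 7 were positive, and 6 were higher without overlap between the groups. Of all genes 44.1% were positive and 10.7% higher without overlap, or 16.9% of those at or above the median level. None of the 8 passed over all genes in limma, and 4 were higher and 0 lower at an unadjusted p under 0.05 (7.14% and 10.3% of all genes). Stip1 and Ahsa1 rose without uninduced replicate 1 (3.22% of all genes rose), but not without both replicate 1 arrays. Stip1, known as HOP, links HSP70 to HSP90. It had 5267, 4561 and 4711 on induced arrays, against 3123, 2692 and 2948 on uninduced arrays, 1.66-fold higher (0.73 ± 0.16, adjusted p of 0.123 in limma). Ahsa1, which speeds up the ATPase of HSP90, had 5966, 5632 and 5682 on induced arrays, against 4020.1, 3181 and 3561 on uninduced arrays (0.69 ± 0.16, adjusted p = 0.136). Fkbp4, the immunophilin FKBP52, had 3339, 3930.0 and 3667 on induced arrays, against 2663, 2070 and 2308 on uninduced arrays (0.64 ± 0.17, adjusted p = 0.159). All 3 genes were higher on every induced array. Fkbp5, the related FKBP51, was higher by 0.41 ± 0.15, and Cdc37, which brings kinases to HSP90, by 0.36 ± 0.16, also without overlap. Hsp90aa1, the inducible cytosolic HSP90, had 27511, 27354 and 28187 on induced arrays, against 23317, 21103 and 20982 on uninduced arrays (0.35 ± 0.14, adjusted p = 0.290). Its groups did not overlap, and its other bright probe sets gave 0.49 and 0.66. St13, the HSP70-interacting protein HIP, stood at -0.26 ± 0.17 with overlapping groups, and its other probe sets pointed up (0.23 and 0.66), so its direction is not settled.

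Chordc1 codes for CHP-1, an HSP90-binding protein with zinc-binding CHORD domains, and its window is shown for the longest run of units among the chaperone genes, 23 bases from position -4.
Chordc1, chr9:18292017-18292316, plus strand: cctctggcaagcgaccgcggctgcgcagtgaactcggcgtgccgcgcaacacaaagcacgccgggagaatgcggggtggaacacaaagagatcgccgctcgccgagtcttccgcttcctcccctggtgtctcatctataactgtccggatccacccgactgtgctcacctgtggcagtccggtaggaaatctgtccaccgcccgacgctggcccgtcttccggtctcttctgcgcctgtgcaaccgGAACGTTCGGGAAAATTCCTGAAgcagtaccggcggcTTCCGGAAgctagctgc
Chordc1 had 8945, 7997 and 7074 on induced arrays, against 7890, 4445 and 5030.4 on uninduced arrays (0.51 ± 0.25, adjusted p of 0.364 in limma). The groups overlapped through uninduced replicate 1, and without that array the difference was 0.75 at an adjusted p of 0.0615.

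Of the 6 J proteins Dnaja1 had the smallest adjusted p. Dnaja1, a farnesylated cytosolic partner of HSC70, had 9144, 9681 and 9620 on induced arrays, against 4853, 5347 and 5785 on uninduced arrays. The groups lay far apart, with uninduced replicate 1 the lowest of all arrays. The difference was 1.78-fold (0.83 ± 0.15, adjusted p of 0.101 in limma, 0.0383 without uninduced replicate 1), and its other probe sets gave 0.51 and 0.70. Its paralog Dnaja2 stood at 0.40 ± 0.16 without overlap. Dnajb1, the stress-inducible HSP40, had 3252, 2837 and 2606 on induced arrays, against 2300, 2518 and 2370 on uninduced arrays (0.27 ± 0.16), and its second probe set gave 0.07. Dnajb6, which suppresses protein aggregation, stood at 0.22 ± 0.16 with overlap. Dnajb4 had 2161, 1585 and 1277 on induced arrays, against 2549, 770 and 751 on uninduced arrays, so that uninduced replicate 1 was the highest array of all. Its difference was 0.51 ± 0.50, and 1.09 without that array. Dnaja3, the mitochondrial J protein TID1, pointed the other way at -0.29 ± 0.21. The group's median was 0.33, with 5 of 6 positive, 0 past the threshold in limma, and 2 higher and 0 lower at an unadjusted p under 0.05 (7.14% and 10.3% of all genes).

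The windows of Dnaja1 and Dnajb6 are shown for comparison, since Dnaja1 has an isolated pair of units in 1 of its 3 windows and Dnajb6 a run of 3.
Dnaja1, chr4:40722218-40722517, plus strand: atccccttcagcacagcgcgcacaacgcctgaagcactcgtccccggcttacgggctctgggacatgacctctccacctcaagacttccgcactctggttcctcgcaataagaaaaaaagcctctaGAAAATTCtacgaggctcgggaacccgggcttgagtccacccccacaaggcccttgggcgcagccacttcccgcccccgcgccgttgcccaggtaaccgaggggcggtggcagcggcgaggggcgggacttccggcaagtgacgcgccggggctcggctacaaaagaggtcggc
Dnajb6, chr5:29735648-29735947, plus strand: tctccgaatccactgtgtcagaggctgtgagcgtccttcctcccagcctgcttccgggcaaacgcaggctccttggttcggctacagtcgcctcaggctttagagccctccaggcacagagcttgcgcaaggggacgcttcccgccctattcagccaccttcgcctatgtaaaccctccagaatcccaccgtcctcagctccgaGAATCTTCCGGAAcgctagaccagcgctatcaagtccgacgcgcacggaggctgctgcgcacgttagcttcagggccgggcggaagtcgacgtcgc
The run of Dnaja1 began at position -124 and that of Dnajb6 at position -46, or at -127 in the other Dnajb6 window. Of the 5 genes with 3 adjoining units, the differences were 1.60 (Hsph1), 0.62 (Hspd1), 0.51 (Chordc1), 0.23 (Hspe1) and 0.22 (Dnajb6). Genes with the 2-unit form alone and differences in the same range included Dnaja1 (0.83), Fkbp4 (0.64), Dnajb4 (0.51) and Cct6a (0.44), and genes with neither form included Stip1 (0.73), Ahsa1 (0.69), Hspa14 (0.66) and Hspa4 (0.57). Both classes also held lower values. With the 2-unit form alone these included Cct5 (0.24), Cct2 (0.12) and the low-signal genes Bag3 (0.12), Hspa1a (0.05), Hspa1b (-0.09) and Hspb1 (-0.15). With neither form they included Tcp1 (0.21), Hspa4l (0.04) and Dnaja3 (-0.29). A relation between these letters and the differences was not tested.

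Of the mitochondrial chaperones Hspd1 and Hspe1, which lie head to head, share a stretch between them. Their windows overlap on opposite strands, and the same 18 bases (chr1:55088059-55088076) carry the units for both, at position -89 of Hspe1 and -144 of Hspd1. Another window of Hspd1, from a different annotated start (chr1:55088194-55088493), held neither the 2-unit nor the 3-unit form. The window of Hspe1 is shown for this shared run.
Hspe1, chr1:55087898-55088197, plus strand: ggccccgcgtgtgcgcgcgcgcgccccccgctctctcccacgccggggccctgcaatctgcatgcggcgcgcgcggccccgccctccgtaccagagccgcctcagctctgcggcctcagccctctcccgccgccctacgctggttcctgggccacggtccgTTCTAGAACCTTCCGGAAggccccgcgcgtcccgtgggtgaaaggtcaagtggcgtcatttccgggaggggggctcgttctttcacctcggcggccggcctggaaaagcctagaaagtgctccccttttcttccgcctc
Hspd1, the HSP60 chamber, had 16218, 19941 and 18182 on induced arrays, against 16965, 9471 and 10052 on uninduced arrays. Uninduced replicate 1 lay within the induced range, well above uninduced replicates 2 and 3. The difference was 0.62 ± 0.26 (adjusted p of 0.291 in limma), and 0.89 without that array (adjusted p = 0.0393). Hspe1, its HSP10 lid, had 12863, 13259 and 13592 on induced arrays, against 12106, 11036 and 10850.0 on uninduced arrays, a smaller gap without overlap (0.23 ± 0.15). Hspa9, mortalin, the HSP70 of the mitochondrial matrix, had 7102, 8308 and 8009 on induced arrays, against 12119, 6059 and 6180 on uninduced arrays. Uninduced replicate 1 was the highest array by a wide margin, and the difference was 0.02 ± 0.30 with it and 0.35 without it. None of the 3 genes passed on all arrays in limma, and 0 were past an unadjusted p of 0.05.

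Differences of the CCT subunits were small and mostly of the same sign. Of 8 subunits 7 were positive, from 0.12 to 0.44 with a median of 0.29, 0 passed in limma over all genes, and 0 had an unadjusted p under 0.05. Cct6a had 16982, 15193 and 15490 on induced arrays, against 15043, 10305 and 10293 on uninduced arrays (0.44 ± 0.20, adjusted p = 0.326). Cct7 had 13825, 14963 and 14101 on induced arrays, against 13479, 9809 and 9887 on uninduced arrays (0.39 ± 0.19). In both, the groups did not overlap, and uninduced replicate 1 lay near the induced arrays. Cct3 stood at 0.40 ± 0.19 and Cct8 at 0.34 ± 0.19, with overlap, and Cct5 at 0.24 ± 0.15 and Tcp1, which codes for the alpha subunit, at 0.21 ± 0.15, without. Cct2 stood at 0.12 ± 0.15. Cct4, the delta subunit, was the exception at -0.12 ± 0.17, with 18538, 15348 and 17547 on induced arrays, against 21397, 16956 and 17625 on uninduced arrays. These groups overlapped, and the other bright probe sets of Cct4 ranged from -0.16 to 0.33. The probe sets used for Cct2, Cct3, Cct4 and Hspa8 are of a type (_x_at) whose probes can match other transcripts, so their values are less certain. None of the windows of the 7 subunits searched held the 3-unit motif, and 3 held the 2-unit form.

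Of the remaining genes Bag1, an HSP70 exchange factor, was clearly measured, with 3519, 4266 and 4128 on induced arrays, against 3333, 2857 and 3050.2 on uninduced arrays (0.36 ± 0.16, adjusted p = 0.314), and no overlap. Bag3, a stress-inducible BAG protein that works in autophagy, and Hsf2, a heat shock factor, lay below the 90th percentile of the background genes (2.82 to 14.4 and 56.3 to 69.8 on induced arrays, against 2.47 to 6.45 and 30.1 to 56.4 on uninduced arrays). For Hsf2, at 5.53 to 6.42 on the log2 scale, this rests on a percentile raised by Mbp and Mag. Hspb1, the small heat shock protein HSP27, had 132, 83.2 and 70.5 on induced arrays, against 148, 86.7 and 88.3 on uninduced arrays (-0.15 ± 0.29), just above that level. None of these 4 genes passed in limma or had an unadjusted p under 0.05.

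Differences of the chaperone genes were mostly smaller between the arrays numbered 1. In 28 of 36 genes the difference was smaller between the arrays numbered 1 than between those numbered 2 and 3, with medians of 0.15 and 0.46 (-0.05 in both over all genes), and in 28 uninduced replicate 1 was the highest uninduced array. Averaged over the 36 genes, levels were 11.83, 11.86 and 11.84 on induced arrays, against 11.69, 11.40 and 11.44 on uninduced arrays, so uninduced replicate 1 lay between the others and the induced arrays. Over all genes the averages were 7.64, 7.57 and 7.58 on induced arrays, against 7.72, 7.63 and 7.67 on uninduced arrays. Uninduced replicate 1 was thus the highest uninduced array over all genes too, and shares of all genes for the counts of 28 are not given here. By group, the median differences in the arrays numbered 1, followed by those numbered 2 and 3, were 0.20 and 0.46 for HSP70 and HSP110, 0.26 and 0.57 for HSP90 and co-chaperones, 0.13 and 0.40 for J proteins, -0.06 and 0.41 for mitochondrial chaperones, 0.08 and 0.40 for CCT subunits, and 0.04 and 0.23 for BAG, small HSP and HSF genes. Hsph1 (1.44 and 1.68), Dnaja1 (0.91 and 0.79) and Stip1 (0.75 and 0.72) differed by similar amounts in both sets, unlike Hspd1 (-0.06 and 0.96) and Hspa9 (-0.77 and 0.41). With 1 array of each group numbered 1, this contrast between replicate numbers was not tested.

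**Figure D3:**
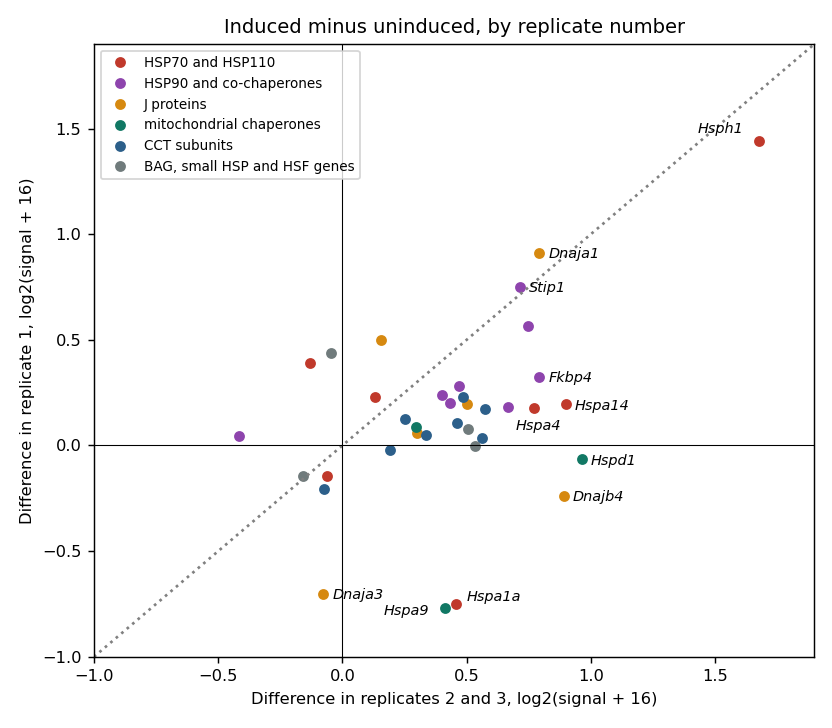
Induced minus uninduced difference of each of the 36 chaperone genes in the arrays numbered 1 (y axis) against the mean of those numbered 2 and 3 (x axis), both on log2(signal + 16), coloured by group. Of the points 28 lie below the dotted line of equality, while Hsph1, Dnaja1 and Stip1 lie near it.

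Other genes of protein folding, taken from 6 lists, had medians nearer to that of all genes, with 1 exception. Over the 6 lists 0 genes passed in limma, and the unadjusted counts are given for each (of all genes 7.14% were higher and 10.3% lower). Without uninduced replicate 1 the lists, in the order below, had 3, 3, 1, 0, 0 and 2 genes that rose. In that fit 2, 1, 0, 1, 2 and 0 fell (3.22% of all genes rose and 4.77% fell). On all arrays the groups lay apart for 7, 4, 5, 4, 6 and 6 genes higher and 2, 3, 5, 1, 5 and 0 lower. Of all genes 10.7% and 13.4% did so. Of 26 other cytosolic co-chaperones 15 were positive (median 0.06, 5 higher and 2 lower at an unadjusted p under 0.05). They included Stub1, the chaperone-linked ubiquitin ligase CHIP, at 0.72 ± 0.20, Bag4 at 0.61 ± 0.15, although its other bright probe sets gave -0.29 and 0.85, and Hspb11, which despite its name codes for an intraflagellar transport subunit, at -1.11 ± 0.23. Of 26 other J proteins 14 were positive (median 0.05, 3 higher and 3 lower), with Dnajc9, a histone chaperone, at 0.67 ± 0.17, Dnajc6, the clathrin-uncoating auxilin, at -0.77 ± 0.17 and Dnajc14 at -0.56 ± 0.14. Of 19 prefoldin, phosducin-like and tubulin cofactor genes 10 were positive (median 0.01, 2 higher and 1 lower). Tbcb, a tubulin cofactor, had 3835, 4117 and 3862 on induced arrays, against 2407, 2444 and 2416 on uninduced arrays (0.70 ± 0.14, adjusted p of 0.116 in limma). The prefoldin subunit Pfdn6 stood at 0.46 ± 0.14 and Pdcl at -0.65 ± 0.21.

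Other mitochondrial chaperones and proteases were split, 6 positive and 6 negative of 12 (median 0.03, 0 higher and 1 lower unadjusted). Lonp1, a protease of the mitochondrial matrix, had 1464, 2036 and 1752 on induced arrays, against 4571, 3939 and 3833 on uninduced arrays. It stood at -1.23 ± 0.19, at an adjusted p of 0.0825 in limma, the smallest of its list, whereas Clpx stood at 0.46 ± 0.20 and Timm23, an import channel subunit, at 0.40 ± 0.17. Of 22 chaperone and stress genes of the endoplasmic reticulum 12 were positive (median 0.06, 4 higher and 5 lower unadjusted). Dnajb9, a J protein of that compartment, had 1004, 1048 and 1208 on induced arrays, against 1790.2, 3784 and 3617 on uninduced arrays (-1.41 ± 0.31, adjusted p = 0.132). Herpud1, which acts in the degradation of misfolded proteins, stood at -0.87 ± 0.18 and Creld2 at 0.70 ± 0.17. The exception was the list of proteins that CCT folds, mostly actins and tubulins, with 12 of 15 positive (median 0.25, 4 higher and 0 lower unadjusted). Tubb4b stood at 0.76 ± 0.16, with -0.22 on its other bright probe set, Tuba4a at 0.62 ± 0.15 and Tubb2a at 1.05 ± 0.27.

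**Figure D4:**
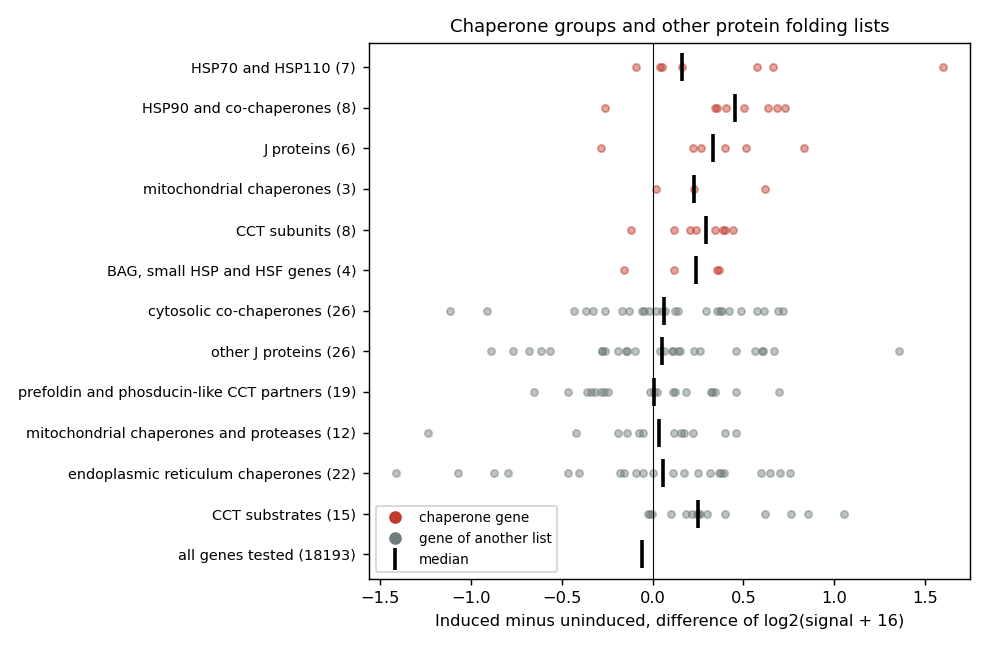
Induced minus uninduced difference (x axis, log2(signal + 16)) of each gene (points) and the median (bars) for the 6 chaperone groups, 6 other lists of protein folding genes and all genes tested, with the number of measured genes in brackets (y axis). Medians of the chaperone groups run from 0.16 to 0.46, those of the other lists from 0.01 to 0.25, and that of all genes is -0.06.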

How the data were processed

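RNA of 6 cultures was measured on Affymetrix 3′ arrays, with groups and replicate numbers taken from the titles. The authors' deposited values are signal intensities on a linear scale, made with Affymetrix Expression Console 1.4.1 per the submitters' processing notes. How probes were summarised is not stated in those notes. Each array had a trimmed mean of 500, with 2% left out at each end. No detection calls were used, the number of arrays limits the precision, and p-values measure the spread between cultures not stated to be separate experiments.

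From these intensities log2(signal + 16) was taken with no other scaling. With 64 control probe sets left out, the 34945 with exactly 1 symbol in the platform table were used, and the brightest on average represented each gene. The test was the two-sided one of limma 3.58.1 (lmFit, then eBayes) in R 4.3.3, with Benjamini-Hochberg adjustment over 18193 genes. The procedure was tested on simulated data. The genes and lists were chosen with earlier results of these data known. The text names all measured chaperone genes, up to 3 genes of each other list by smallest p, Jak2 and Spag9, and the 5 genes nearest to Hsph1. Arrays with the same replicate number deviated together, so a replicate block was fitted, although replicates 2 and 3 also did so across numbers. Promoter windows are RefSeq's on GRCm38.p6, and protein features were not analysed here. Figures were drawn with matplotlib 3.10.9. Alternatives tried were median centring, a replicate block, quantile normalization, a filter at the median level, other choices of probe set, another variance model, pseudocounts of 1 and 64, leaving out each array, leaving out both replicate 1 arrays, and replicate 1 as a batch.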

Additional observations from a re-analysis of the deposited data

How the results depend on the processing

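The direction of 23 of the 36 chaperone genes was the same under each of the 18 alternatives that gave a value for the gene, and 13 reversed under at least 1. The filter at the median level gave none for Hspa1a, Hspa1b, Bag3, Hspb1 and Hsf2. The count of 34 genes past the threshold (21 higher, 13 lower) was 30 with median centring (24 and 6), and it was 0 with the replicate block, 742 with the filter at the median level (fewer genes tested), 19 with the most variable probe set, 550 with trended and robust variance, 0 with a pseudocount of 1, 255 with a pseudocount of 64, 1477 without both replicate 1 arrays, and from 0 to 1453 when 1 array was left out. Unadjusted, 3269 and 2807 genes had a p under 0.05 in limma with the block and with a pseudocount of 1. The 1 chaperone gene past the threshold was also 1 with replicate 1 as a batch (25 genes in all), median centring and the mean of probe sets. It became 0 with the replicate block, quantile normalization, the most variable probe set, all probe sets and a pseudocount of 1 (0% to 0.104% of all genes or probe sets rose). There from 5 to 9 were higher at an unadjusted p under 0.05 in limma, and 0 lower except 3 with the most variable probe set. Of all genes 1138 to 1441 were higher and 1604 to 1994 lower, or 2447 and 3128 of 34945 probe sets. The count was 5 of 31 with the filter (3.55% of 9097 genes rose), 4 with trended variance (1.3% of all genes), 3 with a pseudocount of 64 (0.671%) and 4 without both replicate 1 arrays (2.88%). It was from 0 to 6 when 1 array was left out (3.22% of all genes rose where it was 6). In all, Hsph1 passed under 8 of 18 alternatives, with adjusted p from 0.00265 to 0.249 and a difference from 1.52 to 1.82.

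Medians that moved by more than the replicate spread were those of HSP70 and HSP110 (0.57 with the filter, which drops Hspa1a and Hspa1b, 0.32 with the mean and 0.31 with the most variable probe set, 0.46 without both replicate 1 arrays, 0.17 to 0.35 without 1 array), HSP90 and co-chaperones (0.29 with the mean, 0.57 without both replicate 1 arrays, 0.35 to 0.58 without 1 array), J proteins (0.20 with the mean, 0.12 with the most variable probe set, 0.25 to 0.37 without 1 array), mitochondrial chaperones (0.62 with the most variable probe set, 0.20 to 0.35 without 1 array) and the BAG, small HSP and HSF genes (0.10 with the mean, 0.08 to 0.29 without 1 array). For CCT subunits the range without 1 array was 0.24 to 0.32.

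Reversals with the mean of probe sets were Hspa4l (-0.15), St13 (0.21), Cct4 (0.01) and Hspb1 (0.06). With the most variable probe set, often a dim one, they were Hspa4l (-0.40), Fkbp4 (-0.93), Fkbp5 (-0.26), St13 (0.66), Dnaja2 (-0.16), Dnaja3 (0.12), Cct3 (-1.0) and Cct4 (0.19). Hspa9 reversed with quantile normalization (-0.03), and Hspa4l (-0.13) and Bag3 (-0.04) without both replicate 1 arrays. Without 1 array, values that crossed 0 ranged from -0.25 to 0.21 for Hspa4l, -0.13 to 0.35 for Hspa1a, -0.32 to 0.14 for Hspa1b, -0.15 to 0.35 for Hspa9, -0.09 to 0.25 for Bag3 and -0.38 to 0.07 for Hspb1. Beyond these, the cause of a shift was not tested. Signal over background limits Hspa1a, Hspa1b, Bag3 and Hsf2.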

Other observations

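Of the 36 chaperone genes 28 had more than 1 probe set, and 22 had another at or above the median level. For 17 of these 22 every such probe set had the same sign as the brightest. The other 5 were Hspa4l, St13, Dnaja3, Hspa9 and Cct4. Hspa9 showed the widest disagreement, from -0.33 to 0.98 on its other bright probe sets.

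The 5 genes whose levels followed Hsph1 most closely over the 6 arrays were Clp1, Kansl2, Gmnn, Ap1s1 and Rbks (Pearson's r from 0.997 to 0.999, over 6 arrays that form the 2 groups compared). Their differences were 0.60, 0.28, 0.50, 0.40 and 0.49, each smaller than that of Hsph1. The measure was used to rank genes and has no test.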
